A study of Mus musculus with 12 samples.

Results

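Expression of 10 genes of the hypoxia response was examined in tumor cells isolated from mouse tumors that carried wild-type RAC1 (WT) or the RAC1 mutation A159V. The genes were the HIF subunits Hif1a and Epas1 and the target genes Vegfa, Car9, Egln3, Bnip3, Ndrg1, Ankrd37, Adm and P4ha1. They were chosen by name as hypoxia genes that are not glycolytic enzymes, by matching the identifiers of the count table to symbols in GENCODE M21, and make up 10 of its 33219 features. Tumors were grown in C57BL/6 mice from MC38, a mouse colon adenocarcinoma line, either with its own Rac1 or with A159V knocked into the endogenous gene by CRISPR. The mutant is a single clone unless the study states otherwise, so that clone and mutation cannot be told apart in these samples. The study reports that its MC38 mutant clones behaved similarly. It also measured glycolysis-related genes, Hif1a among them, by RT-qPCR in cultured cells of other clones. Mice received an anti-PD1 antibody, which blocks a checkpoint receptor of T cells, or an IgG isotype control, which gave 4 groups of 3 samples: A159V IgG, A159V anti-PD1, WT IgG and WT anti-PD1. Tumor cells were purified magnetically by depletion of other cell types before RNA-seq of polyadenylated RNA, with totals of 14053582 to 21949942 counts.

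Hypoxia-inducible factors are transcription factors built of an oxygen-sensitive alpha subunit (HIF1A or EPAS1) and the stable partner ARNT. With oxygen present, prolyl hydroxylases modify the alpha subunit, the VHL ubiquitin ligase binds it and it is destroyed, so its protein level is set largely after transcription. Without oxygen the dimer binds hypoxia response elements, whose core reads ACGTG or GCGTG, and switches on genes for blood vessel growth, pH balance, removal of mitochondria, matrix assembly and feedback on HIF itself. Solid tumors often hold poorly perfused regions, and the target genes are widely used as markers of them. Counts of RNA carry no information on HIF protein.

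Values are CPM, counts relative to the library total after scaling by edgeR's TMM method, and fold changes are log2 with the standard error of edgeR's quasi-likelihood test. A gene was called a differentially expressed gene (DEG) at a Benjamini-Hochberg adjusted p under 0.05 over the 14340 genes with sufficient counts and an absolute log2 fold change above 0.3. Of the 10 genes, 9 had sufficient counts. The floor of detection, set at 3 counts per library, was 0.144 to 0.201 CPM and covers counting error only. Replicate 1 of WT IgG stood apart from the other samples in its trend with exon length: with each gene set against its own mean over all samples, the median of genes with over 5 kb of exon sequence lay −0.87 on the log2 scale from that of genes under 2 kb, against −0.26 to 0.20 in the remaining samples. Replicate 5 of A159V IgG differed from its group in some genes, among them Hif1a and Bnip3. Without it edgeR called 32.0% of all genes under IgG, against 28.0% with it. Markers of leukocytes summed to between 12.1 and 24.0 CPM in WT anti-PD1, 1.53 and 4.57 in WT IgG, 1.01 and 1.44 in A159V IgG, and 1.22 and 1.69 in A159V anti-PD1. The epithelial markers Epcam, Krt8, Krt18, Krt19 and Cdx2 had too few counts for testing in these cells, although the line is labelled a colon adenocarcinoma, and of the 7 epithelial markers only Cdh1 and Vil1 were tested. The 7 summed to between 3.21 and 5.70 CPM in WT anti-PD1, 1.56 and 2.57 in WT IgG, 2.54 and 2.87 in A159V IgG, and 1.53 and 2.39 in A159V anti-PD1. Cdh1 measured 0.947 ± 0.125 CPM (SD, n = 3) in WT anti-PD1 and between 0.307 and 0.473 on average in the other groups. It reached the filter's minimum in 3 WT anti-PD1 samples and 1 WT IgG sample, and in no A159V sample. Vil1 was highest in A159V IgG, at 1.55 CPM on average, against 1.38 in WT anti-PD1, 1.27 in A159V anti-PD1 and 0.970 in WT IgG.

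Promoter sequences of the hypoxia genes are shown because they hold the letters that HIF reads. RefSeq gives a window from 250 bases before to 50 bases after the start site for 8 of the 10 genes, with 2 windows for Vegfa. The cores ACGTG and GCGTG were searched on both strands, and matches on opposite strands that share bases were each counted. A match was found in 8 of the 9 windows, against 43.8% of the 32851 windows of all genes, and the count was highest for Bnip3 with 5, followed by Ankrd37 with 4, Hif1a and P4ha1 with 3, Adm and the second Vegfa window with 2, and Car9 and Egln3 with 1. Only 8.93% of all windows held 3 or more. The first Vegfa window, at the outer end of the gene, held no match. The second (chr17:46025114-46025413) lies wholly within the GENCODE span of the gene (46016993 to 46032369), so its matches are not upstream of the gene. The windows of Hif1a and Ankrd37 also lie within the spans of their genes. Whether matches fall in exons was not examined. The 250 bases before the start site are printed for Hif1a (chr12:73907617-73907866, plus strand), Ankrd37 (chr8:45999851-46000100, minus strand) and Bnip3 (chr7:138909507-138909756, minus strand) from RefSeq, build GRCm38.p6, with matches in capitals: the first 2 passed the test under IgG and the last, with more matches, did not.
Hif1a: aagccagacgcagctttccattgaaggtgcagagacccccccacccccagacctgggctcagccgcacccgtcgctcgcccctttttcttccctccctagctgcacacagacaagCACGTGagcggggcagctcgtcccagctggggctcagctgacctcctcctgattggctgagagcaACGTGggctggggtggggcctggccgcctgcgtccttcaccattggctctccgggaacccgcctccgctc
Ankrd37: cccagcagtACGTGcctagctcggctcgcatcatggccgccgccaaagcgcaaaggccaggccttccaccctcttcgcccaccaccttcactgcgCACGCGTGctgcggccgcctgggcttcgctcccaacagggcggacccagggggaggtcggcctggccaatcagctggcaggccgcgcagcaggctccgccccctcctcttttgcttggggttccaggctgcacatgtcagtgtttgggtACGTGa
Bnip3: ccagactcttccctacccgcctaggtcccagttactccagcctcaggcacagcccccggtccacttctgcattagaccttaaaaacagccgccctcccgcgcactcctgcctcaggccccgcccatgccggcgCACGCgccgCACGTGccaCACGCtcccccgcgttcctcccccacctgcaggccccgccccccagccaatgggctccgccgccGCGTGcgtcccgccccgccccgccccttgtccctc
The capitals CACGTG in Hif1a and Bnip3 read as ACGTG on both strands, and CACGCGTG in Ankrd37 holds GCGTG on both strands. A match is a description of these letters and was not tested as a binding site.

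Levels of the 10 genes were compared per kilobase of exon sequence, since longer transcripts collect more reads. Bnip3, which encodes a receptor for mitophagy, had the highest level in all 4 groups, from 85.7 ± 1.97 CPM per kb (SD, n = 3) in WT IgG to 96.2 ± 6.02 in A159V anti-PD1. P4ha1, a collagen prolyl 4-hydroxylase subunit, came second in all groups, with 53.3 ± 5.55 CPM per kb in WT IgG, and its samples lay below all Bnip3 samples of the same group. Vegfa and Ndrg1 followed at 41.7 ± 8.54 and 32.6 ± 7.99 CPM per kb in WT IgG, and they overlapped each other in all groups. Car9, Egln3, Hif1a and Ankrd37 formed the next tier, between 15.0 and 26.8 CPM per kb on average in WT IgG, with overlapping neighbours there. In both A159V groups Hif1a ranked above Car9, though their samples overlapped. Adm was far lower, at 0.464 ± 0.313 CPM per kb in WT IgG, and Epas1 was lowest in all groups.

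**Figure D1:**
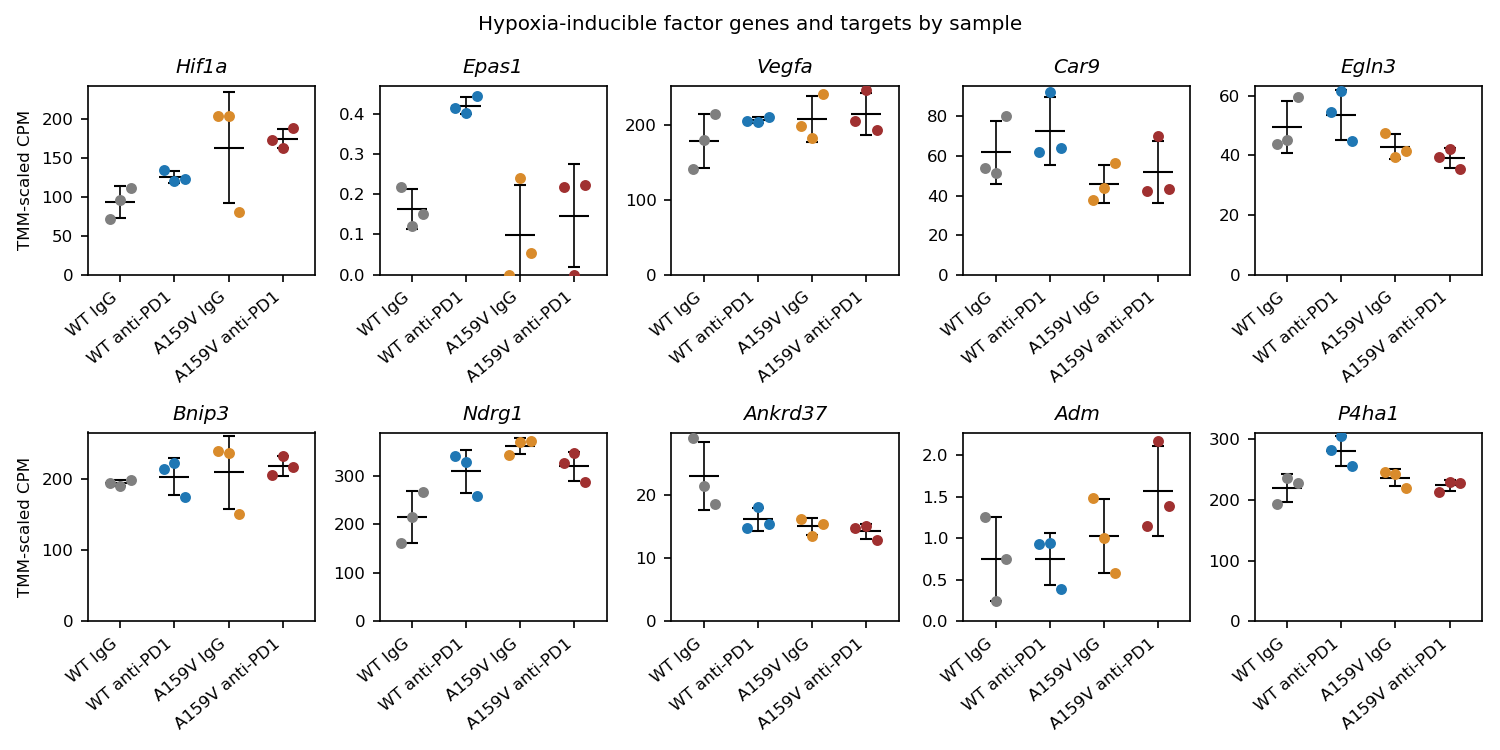
Each panel plots 1 gene in TMM-scaled CPM from 0, with a point per sample, a bar for the mean and whiskers for the SD of the 3 samples of a group. The A159V IgG points of Ndrg1 lie between 342.5 and 372.3 CPM, above the WT IgG points between 161.8 and 267.2, while 1 of the 3 A159V IgG points of Hif1a lies among those of WT IgG.

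The HIF alpha subunits differed strongly in level: Hif1a RNA was abundant and Epas1 RNA was near the limit of detection. Hif1a (chromosome 12, 73901375 to 73947530 in mm10) measured 71.1, 95.9 and 111.8 CPM in WT IgG and 133.9, 119.9 and 122.4 CPM in WT anti-PD1. In A159V IgG it measured 204.5, 203.9 and 81.0 CPM, and in A159V anti-PD1 172.8, 163.4 and 188.4 CPM. Replicate 5 of A159V IgG was thus within the WT IgG range, while both other A159V IgG samples and all 3 A159V anti-PD1 samples were above all 6 WT samples. Under IgG, Hif1a was called higher in A159V (log2 fold change 0.81, 95% interval 0.22 to 1.41, edgeR adjusted p = 0.0437), although the groups overlapped. The call held in 5 of 22 alternatives: without WT IgG replicate 1 the log2 fold change was 0.58 (adjusted p = 0.157), without A159V IgG replicate 1 or 2 it was 0.62 (0.158 and 0.161), and without A159V IgG replicate 5 it was 1.06 (0.000932). Over the alternatives the value ranged from 0.52 to 1.29. The highest came with the replicate number as a block. There A159V IgG replicate 5 and WT IgG replicate 4 had terms of their own and did not inform the difference. With the trend with exon length removed the value was 0.68 (adjusted p = 0.0544). Hif1a has 5896 exon bases, and the part of transcript length in the result was not tested beyond that value. Under anti-PD1 the Hif1a groups did not overlap, but the difference of 0.48 did not pass edgeR's test (95% interval −0.11 to 1.07, adjusted p = 0.231). Without A159V IgG replicate 5, which is in neither group but enters the filter, the scaling and the shared estimate of spread, it was 0.45 and passed (adjusted p = 0.0356). On the opposite strand, Gm15283 covers 5.60% of the Hif1a exon bases, Gm12454 9.29% of those of Car9, Gm45507 22.3% of those of Bnip3 and Gm17035 6.35% of those of Ndrg1, and without a stated strand setting their reads cannot be told apart.

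Epas1 (chromosome 17, 86753700 to 86833410), whose product HIF2A is prominent in endothelium, held between 0 and 8 counts per sample. It measured 0.219, 0.122 and 0.151 CPM in WT IgG and 0.414, 0.402 and 0.445 CPM in WT anti-PD1. In A159V IgG it measured 0, 0.240 and 0.0531 CPM, and in A159V anti-PD1 0.218, 0 and 0.223 CPM. The WT anti-PD1 samples were the highest of the 12, and the remaining values lay near the floor, so no difference was tested. The sum of the endothelial markers, 8 genes of which 4 were tested, was also highest there. They summed to between 24.4 and 26.4 CPM in WT anti-PD1, 17.5 and 24.3 in WT IgG, 19.7 and 23.1 in A159V IgG and 21.7 and 24.0 in A159V anti-PD1. Of these markers Cdh5 measured 11.3 ± 1.27 CPM (SD, n = 3) in WT anti-PD1 and between 5.83 and 6.81 on average in the other groups, while Emcn and Cldn5 were at 0 in both anti-PD1 groups. The part of endothelial RNA in the Epas1 values was not tested. In bulk RNA of this kind, fewer cells of a type and less RNA per cell cannot be told apart.

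Egln3, the prolyl hydroxylase that HIF induces as feedback on its own alpha subunit, was not called in any comparison. Its level (chromosome 12, 54178981 to 54203860) was 43.9, 45.0 and 59.7 CPM in WT IgG and 54.5, 61.5 and 44.7 CPM in WT anti-PD1. It was 47.5, 39.5 and 41.6 CPM in A159V IgG and 39.6, 42.3 and 35.6 CPM in A159V anti-PD1. All 3 A159V anti-PD1 samples were below all 3 WT anti-PD1 samples, while the IgG groups overlapped. The difference under anti-PD1 was −0.45 (95% interval −0.79 to −0.11, edgeR adjusted p = 0.0594), and it passed the test in 10 of 22 alternatives, with values from −0.58 to 0.08 over the settings other than leave-one-out and adjusted p from 0.00473 to 0.995. Without WT IgG replicate 1, which is in neither group but enters the shared estimate of spread and the scaling, it was −0.52 (adjusted p = 0.0203).

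The 2 secreted factors differed in abundance. Vegfa (chromosome 17, 46016993 to 46032369), the main growth factor for blood vessels, was 141.4, 180.4 and 214.5 CPM in WT IgG and 205.5, 204.1 and 210.7 CPM in WT anti-PD1. It was 198.2, 182.6 and 241.9 CPM in A159V IgG and 205.5, 247.0 and 192.9 CPM in A159V anti-PD1. WT IgG replicate 1 was the lowest of the 12 samples, and the genotypes overlapped under both treatments. The genotype differences were 0.22 under IgG (95% interval −0.14 to 0.57, edgeR adjusted p = 0.345) and 0.06 under anti-PD1 (−0.30 to 0.41, adjusted p = 0.833). Adm (chromosome 7, 110627661 to 110629820), which encodes the vasodilator peptide adrenomedullin, held only 4 to 41 counts per sample. Its level was 1.26, 0.245 and 0.753 CPM in WT IgG, 0.932, 0.939 and 0.390 CPM in WT anti-PD1, 1.48, 1.01 and 0.585 CPM in A159V IgG and 1.14, 2.18 and 1.39 CPM in A159V anti-PD1. The 3 A159V anti-PD1 samples were above the 3 WT anti-PD1 samples, and the difference of 1.06 had a 95% interval from −0.07 to 2.19 (edgeR adjusted p = 0.164).

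Car9 and P4ha1 encode enzymes, and neither was called in a genotype comparison. Car9 (chromosome 4, 43506966 to 43513729), a carbonic anhydrase at the cell surface, was 54.0, 51.2 and 80.3 CPM in WT IgG and 61.9, 92.5 and 63.8 CPM in WT anti-PD1. In A159V IgG it was 37.9, 43.7 and 56.4 CPM, and in A159V anti-PD1 42.3, 70.1 and 43.2 CPM. A159V means were lower under both treatments, but in each case 1 A159V sample reached the WT range. The differences were −0.43 under IgG (95% interval −0.96 to 0.11, edgeR adjusted p = 0.213) and −0.49 under anti-PD1 (−1.02 to 0.05, adjusted p = 0.177). P4ha1 (chromosome 10, 59323296 to 59373304) was 193.4, 236.7 and 227.7 CPM in WT IgG, 282.0, 305.2 and 256.3 CPM in WT anti-PD1, 246.4, 242.9 and 220.3 CPM in A159V IgG and 213.7, 229.9 and 228.6 CPM in A159V anti-PD1. WT anti-PD1 was the highest group, with all 3 samples above the 9 others. Its difference from A159V anti-PD1 was −0.33 for A159V relative to WT (95% interval −0.59 to −0.06, edgeR adjusted p = 0.0731), and it passed the test in 9 of 22 alternatives, among them DESeq2 (−0.39, adjusted p = 0.00311). Over the alternatives its adjusted p ranged from 0.00311 to 0.993.

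Bnip3 was not called in any comparison. Its level (chromosome 7, 138890836 to 138909519) was 193.8, 189.7 and 198.6 CPM in WT IgG and 213.4, 222.3 and 173.8 CPM in WT anti-PD1. It was 239.7, 236.6 and 150.3 CPM in A159V IgG and 204.9, 232.1 and 216.7 CPM in A159V anti-PD1. Replicate 5 of A159V IgG, which also had a low Hif1a value, was the lowest of the 12 samples, and its 2 companions were the highest. The genotype differences were 0.11 under IgG (95% interval −0.26 to 0.47, edgeR adjusted p = 0.666) and 0.10 under anti-PD1 (−0.26 to 0.46, adjusted p = 0.706).

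Ndrg1 (chromosome 15, 66929318 to 66969640), a stress-induced gene linked to differentiation and suppression of metastasis, was 161.8, 215.6 and 267.2 CPM in WT IgG and 342.5, 370.4 and 372.3 CPM in A159V IgG. All 3 A159V IgG samples were above all 3 WT IgG samples, and Ndrg1 was called higher in A159V (log2 fold change 0.75, 95% interval 0.37 to 1.13, edgeR adjusted p = 0.00791), a 1.68-fold difference. It was 339.9, 328.6 and 259.0 CPM in WT anti-PD1 and 325.4, 346.1 and 286.3 CPM in A159V anti-PD1. Under anti-PD1 the genotypes overlapped and differed by 0.05 (95% interval −0.33 to 0.42, edgeR adjusted p = 0.875). The difference under IgG passed the test in 20 of 22 alternatives. It was 0.52 without WT IgG replicate 1 (adjusted p = 0.0257) and 0.62 with the exon length trend removed (adjusted p = 0.00592). The call was lost with the leukocyte marker score as a covariate (0.83, adjusted p = 0.0707) and when only the 2 groups were fitted (0.68, adjusted p = 0.069). Leukocyte markers differ between the groups, so a call lost with that covariate cannot be assigned to leukocyte RNA.

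Ankrd37, a small ankyrin repeat protein gene used as a HIF marker, was the member called lower. Its level (chromosome 8, 45996902 to 46005707) was 29.1, 21.5 and 18.6 CPM in WT IgG and 16.2, 13.5 and 15.5 CPM in A159V IgG. The groups did not overlap, and the log2 fold change was −0.62 (95% interval −0.99 to −0.24, edgeR adjusted p = 0.0195). It was 14.8, 18.2 and 15.5 CPM in WT anti-PD1 and 14.8, 15.0 and 12.9 CPM in A159V anti-PD1, where the genotypes overlapped (−0.18, 95% interval −0.56 to 0.20, edgeR adjusted p = 0.496). WT IgG replicate 1 had the highest value, and without it the difference under IgG was −0.48 (adjusted p = 0.0445). The call was lost without A159V IgG replicate 2 (−0.54, adjusted p = 0.0797), with the leukocyte score as a covariate (−0.47, adjusted p = 0.262) and with only the 2 groups fitted (−0.70, adjusted p = 0.0875). Ankrd37 has 1539 exon bases, of which 22.7% lie under the oppositely oriented Lrp2bp, and with the strand setting of the count not stated, reads of the 2 genes cannot be told apart there.

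The calls among the hypoxia genes went in both directions. Under IgG, 3 of the 9 tested genes were called, 2 higher and 1 lower, where 28.0% of all genes tested were called, 15.6% higher and 12.4% lower, so the share of hypoxia genes called was near that of all genes. The groups did not overlap for 2 of the 9, against 35.8% of all genes, and the median log2 fold change was 0.11 against 0.02. Under anti-PD1, none of the 9 was called by edgeR (2 had an unadjusted p under 0.05, against 35.8% of all genes), while 21.4% of all genes were called, 11.2% higher and 10.2% lower. There the groups did not overlap for 4 of 9 genes, against 56.1% of all genes. DESeq2 called Egln3 and P4ha1 lower in A159V anti-PD1 and 23.7% of all genes, and limma voom called none of the 9 and 21.1% of all genes.

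**Figure D2:**
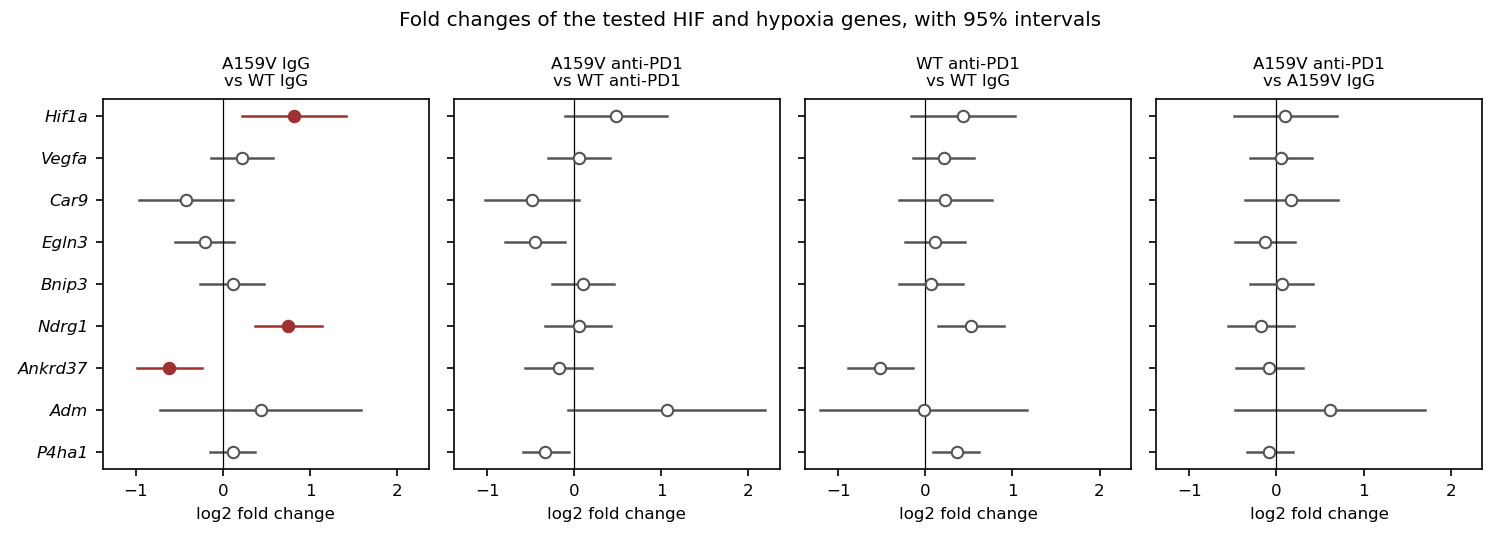
Each panel plots the log2 fold changes of the 9 tested genes in 1 comparison, with 95% intervals as bars and filled red points for DEGs. The filled points are Hif1a (0.81), Ndrg1 (0.75) and Ankrd37 (−0.62) in A159V IgG relative to WT IgG.

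The response to anti-PD1 was compared within each genotype. In WT, 3 of the 9 genes had an unadjusted p under 0.05, against 27.5% of all genes, and none was called by edgeR, against 0.628%. Ndrg1 differed by 0.52 (95% interval 0.15 to 0.90, edgeR adjusted p = 0.101) and P4ha1 by 0.36 (0.09 to 0.62, adjusted p = 0.104). Ankrd37 differed by −0.52 (95% interval −0.89 to −0.14, edgeR adjusted p = 0.102). DESeq2 called Ndrg1 (0.51, adjusted p = 0.0467) and P4ha1 (0.35, adjusted p = 0.0293) higher after anti-PD1, where it called 10% of all genes, and limma voom called none of the 9 and 1.31% of all genes. Without WT IgG replicate 1 the edgeR values were 0.35 for Ndrg1, 0.27 for P4ha1 and −0.32 for Ankrd37. Without WT IgG replicate 4 they were 0.71 for Ndrg1 (adjusted p = 0.0134) and −0.65 for Ankrd37 (adjusted p = 0.0189), both past the limits, where edgeR called 23.6% of all genes. The WT groups did not overlap for 3 of the 9 genes, Hif1a, Ankrd37 and P4ha1, against 34.6% of all genes. In this comparison the median over all tested genes rose with exon length, from a log2 fold change of −0.33 under 2 kb to 0.22 over 5 kb, and with that trend removed the values were 0.39 for Ndrg1 (6596 exon bases, edgeR adjusted p = 0.128), −0.22 for Ankrd37 (adjusted p = 0.326) and 0.37 for P4ha1 (adjusted p = 0.0845).

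In A159V, anti-PD1 was followed by smaller differences. None of the 9 genes was called by edgeR, none had an unadjusted p under 0.05, and DESeq2 and limma voom called none. Of all genes, 0% were called by edgeR and voom, 0.0139% by DESeq2, and 3.63% had an unadjusted p under 0.05. The absolute log2 fold changes had a median of 0.10, against 0.13 over all genes. The groups overlapped for all 9 genes, and did not overlap for 11.0% of all genes. The largest value was that of Adm at 0.62, with a 95% interval from −0.47 to 1.70, and that of Ndrg1 was −0.18 (−0.56 to 0.20).

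The difference between the 2 responses was tested as an interaction. None of the 9 genes was called by edgeR, where 0.00697% of all genes were called, and 2 of the 9 had an unadjusted p under 0.05, against 17.6% of all genes. The interaction of Ndrg1 was −0.70 (95% interval −1.24 to −0.17, edgeR adjusted p = 0.224), and that of P4ha1 was −0.44 (−0.81 to −0.06, adjusted p = 0.241). Ndrg1 was called (−0.89, adjusted p = 0.0386) without WT IgG replicate 4, where edgeR called 8.07% of all genes. Its adjusted p ranged from 0.0203 to 0.768 over the settings that kept all samples. A different genotype effect under the 2 treatments was therefore not shown for any of the 9 genes.

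**Figure D3:**
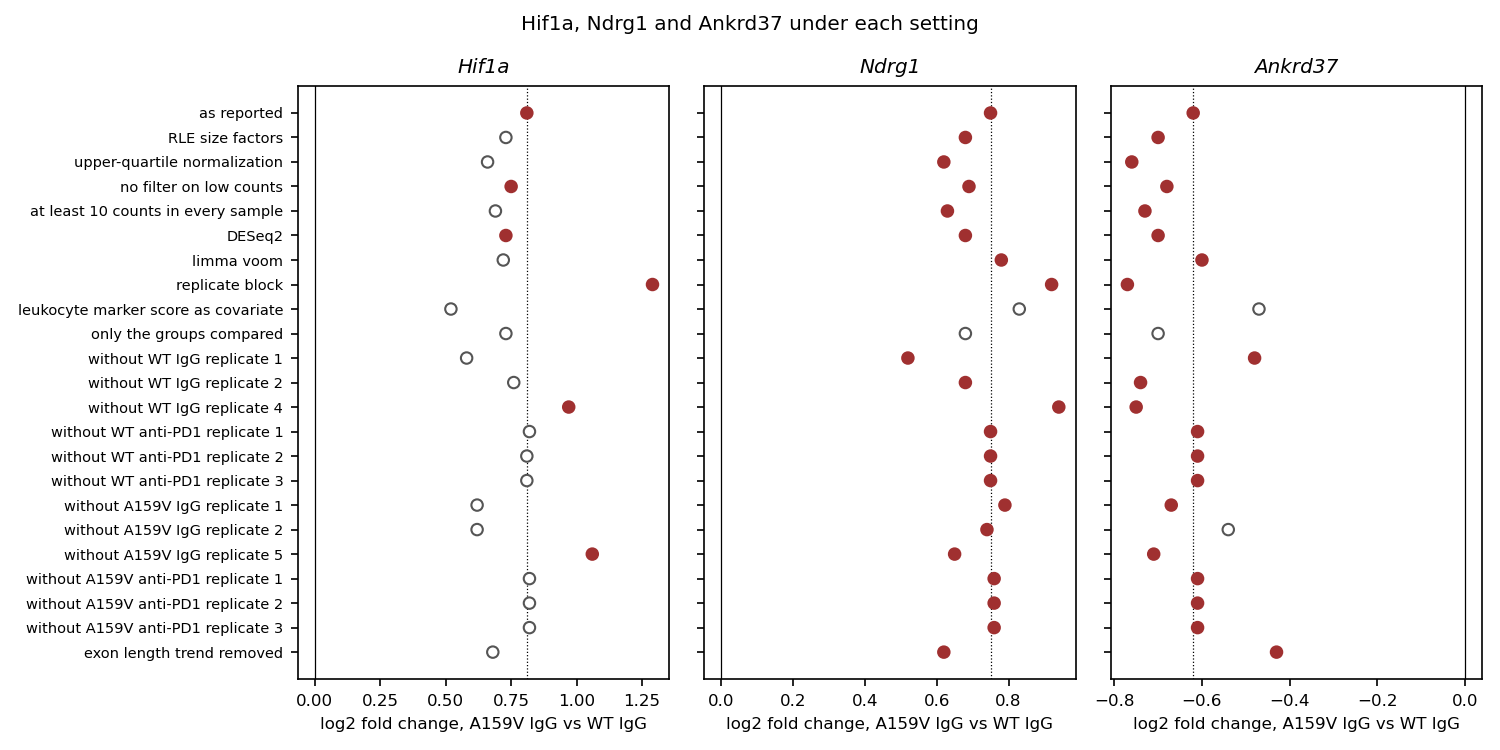
Each row is 1 setting of the analysis and each panel 1 gene, with the log2 fold change of A159V IgG relative to WT IgG on the horizontal axis, filled red points for DEGs and a dotted line at the reported value. Hif1a ranged from 0.52 to 1.29 and was mostly not called, whereas Ndrg1 and Ankrd37 were called in 20 and 19 of 22 alternatives.

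The machinery that controls HIF was read from 14 regulator genes, of which 13 were tested and Hif3a was not. Under IgG 3 were called, against 28.0% of all genes, and the remaining regulators, among them Arnt, Vhl, Egln1 and Hif1an, were not. Arnt2, a partner subunit related to ARNT, was higher in A159V IgG at 2.98 ± 0.263 CPM (SD, n = 3) than in WT IgG at 1.64 ± 0.115 CPM (log2 fold change 0.86 ± 0.25 SE, edgeR adjusted p = 0.0239), whereas no regulator was called higher with upper-quartile scaling. Cited2, which competes with HIF alpha for the coactivators p300 and CBP, was lower at 177.5 ± 18.2 CPM against 272.4 ± 20.1 CPM (−0.62 ± 0.16 SE, edgeR adjusted p = 0.0152). Rbx1, the RING subunit of the VHL ligase and of other cullin ligases, was lower at 50.6 ± 5.86 against 76.6 ± 17.2 CPM (−0.60 ± 0.16 SE, edgeR adjusted p = 0.0153). Under anti-PD1, 2 of the 13 were called, against 21.4% of all genes: Arnt2 was higher by 0.93 ± 0.26 (SE, edgeR adjusted p = 0.0226) and Cited2 lower, with a log2 fold change of −0.66 ± 0.16 (SE, adjusted p = 0.0132). Vhl was between 31.8 and 42.2 CPM over the 4 groups, and Egln1, the main oxygen sensor, between 112 and 155.4 CPM.

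Other HIF targets were read from a list of 30 genes, of which 27 were tested and Stc1, Edn1 and Pdgfb were not. Under IgG, 12 of the 27 were called, 8 higher and 4 lower in A159V, and the median log2 fold change was 0.22. Of all genes tested 28.0% were called, 15.6% higher and 12.4% lower, with a median of 0.02. With RLE scaling the split was 6 higher and 5 lower, and with upper-quartile scaling 6 and 6. Among the genes called higher, P4ha2, a second collagen prolyl hydroxylase subunit, measured 209.0 ± 23.2 CPM in A159V IgG and 122.0 ± 10.3 CPM in WT IgG (log2 fold change 0.78 ± 0.13 SE, edgeR adjusted p = 0.00153). Plod1, which hydroxylates lysines of collagen, was higher by 0.70 ± 0.13 (SE, edgeR adjusted p = 0.00257). Ak4, a mitochondrial adenylate kinase, was higher by 0.79 ± 0.15 (SE, adjusted p = 0.00269), and Car12, a carbonic anhydrase related to Car9, by 1.94 ± 0.35 (SE, adjusted p = 0.0019) from a low level of 0.734 ± 0.380 CPM in WT IgG. Stc2, Mxi1, Hmox1 and Tfrc were also called higher, the last with overlapping groups.

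Of the HIF targets called lower under IgG, Angptl4, an inhibitor of lipoprotein lipase, was at 9.47 ± 1.90 CPM in A159V IgG and 24.5 ± 6.60 CPM in WT IgG (log2 fold change −1.37 ± 0.23 SE, edgeR adjusted p = 0.00115). The collagen cross-linking enzymes Lox (−3.23 ± 0.78 SE, edgeR adjusted p = 0.00966) and Loxl2 (−0.86 ± 0.21 SE, adjusted p = 0.0107) were lower too. Lox ranged from 0.979 to 9.40 CPM in WT IgG and from 0.213 to 0.740 CPM in A159V IgG, where it held only 4 to 14 counts per sample. The summed fibroblast markers were lower as well, with 293.7 to 596.4 CPM in WT IgG and 179.8 to 250.1 CPM in A159V IgG. Of the 6 markers 3 were called lower. Pdgfra (70.5 against 45.9 CPM in WT IgG) and Acta2 (1.54 against 1.26 CPM) were higher on average in A159V IgG and not called. The part of fibroblast RNA in the result was not tested.

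Under anti-PD1, 7 of the 27 targets were called, 5 higher and 2 lower in A159V, against 21.4% of all genes, 11.2% higher and 10.2% lower. Stc2, a secreted glycoprotein hormone, was higher at 67.8 ± 2.60 CPM against 38.8 ± 5.34 CPM in WT anti-PD1 (log2 fold change 0.80 ± 0.13 SE, edgeR adjusted p = 0.00121). Hilpda, a lipid droplet protein, was higher by 0.77 ± 0.20 (SE, edgeR adjusted p = 0.0159), Ak4 by 0.70 ± 0.15 (SE, adjusted p = 0.00585) and Hmox1, which degrades heme, by 0.63 ± 0.16 (SE, adjusted p = 0.0171). P4ha2 was also called higher. Among the genes called lower, Cxcr4, a chemokine receptor that leukocytes also express, had no counts in the 3 A159V anti-PD1 samples and 1.16 ± 0.174 CPM in WT anti-PD1, which is at least 6.92-fold lower when set against the highest floor of 3 counts among the A159V anti-PD1 libraries, 0.167 CPM. Cxcr4 reached the count filter only through the 3 WT anti-PD1 samples, so its inclusion among the 7 called genes supports nothing. The WT anti-PD1 samples were those with the highest summed leukocyte markers, and the part of leukocyte RNA in the Cxcr4 value was not tested.

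**Figure D4:**
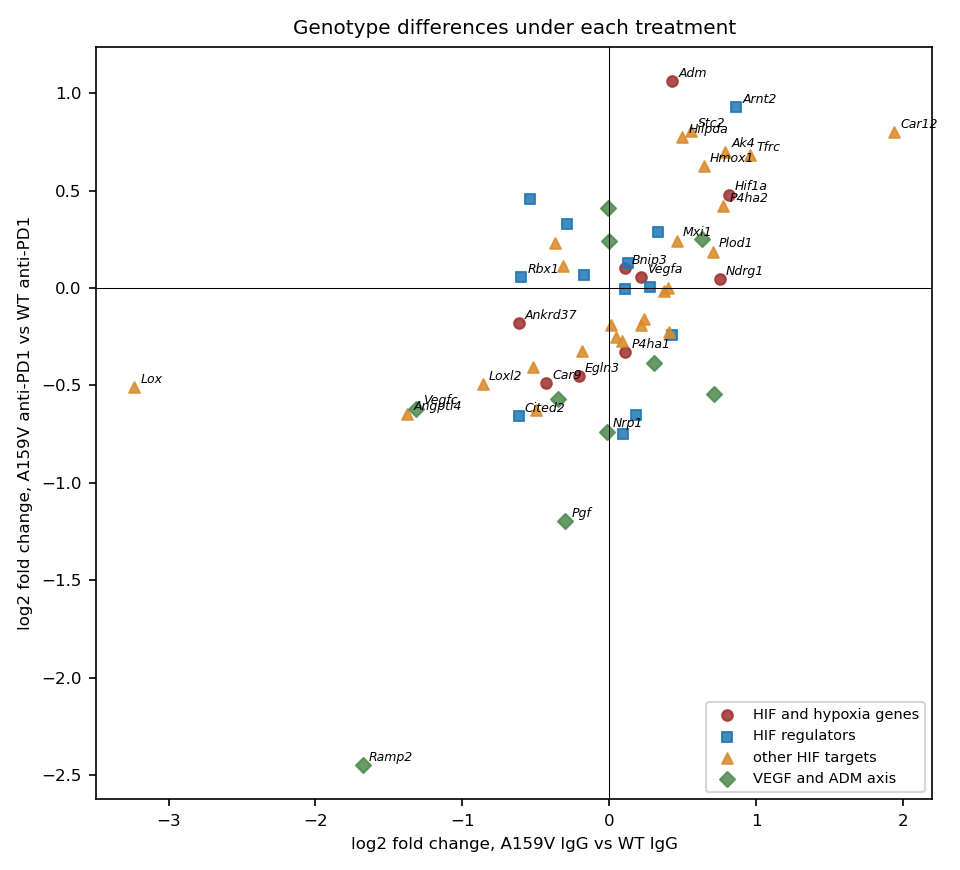
Each point is 1 gene reported from the 4 lists, with the log2 fold change of A159V relative to WT under IgG on the horizontal axis and under anti-PD1 on the vertical axis. The 2 axes rest on different samples, names are given for the 9 hypoxia genes and for DEGs, and Cxcr4 lies outside the axes. Ramp2 (−1.68 and −2.45) is low on both axes.

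Ligands and receptors around Vegfa and Adm were read from 13 genes, of which 10 were tested and Kdr, Flt4 and Ramp1 were not. Under IgG 2 were called, both lower in A159V. Vegfc, a growth factor for lymphatic vessels, was at 9.06 ± 2.00 CPM in A159V IgG and 22.5 ± 6.71 CPM in WT IgG (log2 fold change −1.31 ± 0.24 SE, edgeR adjusted p = 0.00204). Ramp2, which pairs with Calcrl to form an adrenomedullin receptor, was at 9.62 ± 0.477 against 30.8 ± 4.83 CPM (−1.68 ± 0.23 SE, edgeR adjusted p = 0.000402). Under anti-PD1 3 were called, all lower: Ramp2 by −2.45 ± 0.24 (SE, edgeR adjusted p = 4.54e-05), Pgf, a VEGF family ligand, by −1.20 ± 0.25 (SE, adjusted p = 0.00481), and Nrp1, a VEGF co-receptor, by −0.74 ± 0.18 (SE, adjusted p = 0.0112). Of all genes, 28.0% were called under IgG and 21.4% under anti-PD1. Under the same treatments Vegfa itself was not called. Some markers of vessel and stromal cells were also called lower in A159V under anti-PD1. They included the endothelial genes Pecam1 (−1.08, edgeR adjusted p = 0.0401) and Cdh5 (−0.74, adjusted p = 0.0355), 2 of the 4 tested endothelial markers. The other 2, Tie1 and Egfl7, went the opposite way. Both were higher in every A159V anti-PD1 sample than in any WT anti-PD1 sample, and neither was called. Of all genes 56.1% did not overlap between these groups. Tie1 reached the filter's minimum in 3 A159V anti-PD1, 2 A159V IgG and 1 WT anti-PD1 samples and in no WT IgG sample. It was thus tested mostly through A159V samples, and its direction supports nothing. Of the 6 fibroblast markers 4 were called lower, while another of them, Acta2, was called higher. The fibroblast markers summed to between 418.7 and 734.5 CPM in WT anti-PD1 and between 172.4 and 220.2 in A159V anti-PD1. Their part in the results was not tested.

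None of the regulators, other targets or vessel genes was called by edgeR for anti-PD1 relative to IgG in either genotype or in the interaction. In WT the numbers with an unadjusted p under 0.05 were 5 of 13 regulators, 9 of 27 other targets and 5 of 10 vessel genes, against 27.5% of all genes, and DESeq2 called 3, 2 and 1, against 10% of all genes. In A159V the numbers with an unadjusted p under 0.05 were 0, 3 and 0, against 3.63% of all genes. For the interaction they were 3, 8 and 4, against 17.6% of all genes.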

How the data were processed

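Tumor cells of 12 samples, 3 in each of 4 groups, were profiled by paired-end RNA-seq of polyadenylated RNA. The authors aligned the reads to mm10 with STAR and counted them per gene with summarizeOverlaps, and the deposited table holds these raw counts without normalization. Strand setting and counting mode are not given in the sources used here, so genes with overlapping or antisense neighbours are uncertain. Groups were taken from the sample labels, and replicates are separate mice according to the study.

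Symbols, positions and exon lengths came from GENCODE M21, which matched 31980 of 33217 Ensembl identifiers. Counts were tested with edgeR 4.0.16 in R 4.3.3: after filterByExpr (14340 genes) and TMM scaling, 1 quasi-likelihood fit covered the 12 samples with a mean per group (8 residual degrees of freedom), and p-values of 5 contrasts were adjusted by Benjamini-Hochberg over all genes tested. The genes described and the lists were chosen by hand with earlier results of these data known, and lists are described by counts and medians without a test of the list. Of the other lists, DEGs are named, or where more than 4 were called in a direction, the 4 with the smallest p, and further DEGs named without values were chosen after their values were seen. A gene that this rule selects is counted but not reported here. Alternatives were RLE and upper-quartile scaling, no filter or at least 10 counts in every sample, DESeq2 1.42.0, limma 3.58.1 with voom, the replicate number as a block, a leukocyte marker score as covariate, only the groups compared, a log2 fold change limit of 1, and each sample left out. Removal of each sample's trend with exon length (lowess span 0.3) was chosen after seeing the data. The fits were checked on simulated counts with genes changed by a log2 fold change of 1 in A159V IgG. Of the changed genes edgeR called 53%, DESeq2 67% and voom 52%. Unchanged genes made up 5.36%, 15.2% and 4.59% of their calls. Apart from the changed genes, all simulated samples shared the same mean per gene. Far fewer genes were changed than the 28.0% called under IgG. The simulation held no exon length trend, no outlying sample and no difference in cell content. Its shares are therefore not estimates for the real samples. Promoter windows came from RefSeq (GRCm38.p6). Figures were drawn with matplotlib 3.10.9.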

Additional observations from a re-analysis of the deposited data

How the results depend on the processing

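Of 976 single-gene values recomputed for the 9 hypoxia genes, 853 kept their direction and their side of the threshold, 22 lost a call, 36 gained one, 65 uncalled values changed sign and no called value did. Counts of DEGs are given in the order hypoxia genes, regulators, other targets, vessel genes, and "reported" is the setting of the report. For A159V IgG relative to WT IgG (3, 3, 12 and 2 reported), the leukocyte covariate gave 0, 0, 2 and 1, a fit of only the compared groups 0 and 1 hypoxia and regulator genes and 6 other targets, a limit of 1 on the log2 fold change 0, 0 and 4, and the replicate block 4 vessel genes. Leaving out 1 sample gave 1 to 3 and 1 to 4 (1 each without A159V IgG replicate 2), 9 to 14 and 2 to 3. For A159V anti-PD1 relative to WT anti-PD1 (0, 2, 7 and 3 reported), RLE, upper-quartile scaling, the minimum of 10 counts, DESeq2 and removal of the exon length trend each gave 2 hypoxia genes. DESeq2 gave 4 regulators, length removal 5 vessel genes, the block 4, 5, 11 and 5, only the compared groups 4, 6, 14 and 7, the covariate 0 regulators, 0 other targets and 0 vessel genes, and the limit of 1 gave 0 regulators and 2 other targets. Leaving out 1 sample gave 0 to 3 (most without A159V IgG replicate 5), 0 to 4 (0 without WT anti-PD1 replicate 3 or A159V anti-PD1 replicate 1), 4 to 11 (4 without WT anti-PD1 replicate 3 or A159V anti-PD1 replicate 2, 11 without A159V IgG replicate 5) and 2 to 7 (7 without WT IgG replicate 1). For WT anti-PD1 relative to WT IgG (0 reported), DESeq2 gave 2, 3, 2 and 1, the block 5, 6, 12 and 5, no filter 3 regulators and 1 other target, voom 1 other target, and leaving out 1 sample 0 to 2, 0 to 5, 0 to 8 and 0 to 3, with the highest counts without WT IgG replicate 4. For the interaction, the block gave 2, 5, 9 and 4, and leaving out 1 sample 0 to 1, 0 to 3, 0 and 0 to 2. Of all genes, the IgG comparison called 6.26% with the covariate, 10.3% with only the compared groups, 11.5% at the limit of 1, 40.9% with the block and 17.5% to 32.0% without 1 sample. The anti-PD1 comparison called 0.0139%, 38.5%, 9.25%, 35.0% and 10.4% to 28.3% in the same order, and 23.7% with DESeq2 and 23.0% with length removal. It called 19.5% with RLE, 19.0% with upper-quartile scaling and 16.6% with the minimum of 10 counts. The WT treatment comparison called 10% with DESeq2, 3.25% with no filter, 1.31% with voom and 0.00684% to 23.6% without 1 sample. The interaction called 19.2% with the block and 0% to 8.07% without 1 sample. Summed leukocyte markers differ between the groups, so covariate and group cannot be told apart in the calls that the covariate removed. The cause of these changes was not tested.

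Replicate numbers did not pair the samples: of 13 pairs with the same number, 3 correlated above 0.1 in their deviations from the group means (−0.18 to 0.20). With the block edgeR called 32.4% of all genes in the WT treatment comparison against 0.628% without it. Numbers 4 and 5 each belong to 1 sample, WT IgG replicate 4 and A159V IgG replicate 5, so the block in effect removes both. It is therefore no check of pairing, and leaving out WT IgG replicate 4 alone gave 23.6%. Upper-quartile scaling moved the median over all tested genes under IgG from a log2 fold change of 0.02 to −0.12, and the share of DEGs that were higher in A159V from 55.6% to 36.6%, with 45.0% under RLE. Under anti-PD1 that share was 52.5%, 34.2% and 40.2%. Depth limits Adm and Epas1, and 3 samples per group limit all tests.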

Other observations

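The genes whose expression followed Hif1a most closely over the 12 samples were Nab1 (Pearson r of log2 CPM 0.983), Ranbp9 (0.982), Kpna1 (0.978), Tank (0.978) and Retreg1 (0.977). For Vegfa they were Dido1 (0.957), Mink1 (0.940), Spen (0.935), Agrn (0.928) and Tesk2 (0.926). These are the highest values among the genes tested, the samples share groups and libraries, and the values are descriptions.

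WT IgG replicate 1 was the lowest of the 12 samples for Hif1a, Vegfa, Ndrg1 and P4ha1, which have 5896, 4285, 6596 and 4114 exon bases, and the highest for Ankrd37, which has 1539. The highest value among the samples was 2.88 times the lowest for Hif1a, 2.30 times for Ndrg1, 2.27 times for Ankrd37 and 1.58 times for P4ha1.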
